A study of Mus musculus with 18 samples.

Results

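The Hedgehog genes examined here were the ligand Shh and the receptor and signal-transducing genes Ptch1, Smo, Gas1 and Boc. With them were Hhip, the gene of a decoy that binds the ligand, and the transcription factor genes Gli1, Gli2 and Gli3. These 9 genes were chosen by name and were found in the table of every sample, among 46603 genes. The 18 samples were mouse lung cultures from the EGFR T790M/L858R model, in which a mutant human EGFR gene under the CAG promoter sits in the Col1a1 locus behind a lox-stop-lox cassette. All cultures carried this allele, and the groups differed in whether Cre had removed the stop cassette. Of the 10 organoid cultures, 4 came from trachea (club cells sorted as NGFR negative, basal cells as NGFR positive) and 6 from distal lung (Sca1 negative AT2 cells, and Sca1 positive bronchioalveolar stem cells, BASCs). Each of the club, basal, AT2 and mixed BASC populations gave 1 culture with Ad-GFP, the control adenovirus, and 1 with Ad-Cre, split from the same sort. BASC organoids picked by hand as alveolar or bronchiolar gave 1 further Ad-Cre culture each. The 8 tumoroids were Ad-Cre cultures regrown in Matrigel from tumors, 3 of AT2 origin, 3 of mixed BASC origin and 1 of bronchiolar BASC origin after transplantation into nude mice, and 1 from an autochthonous tumor after Ad-Cre was given to the airways. Every organoid condition was a single culture, and comparisons among organoids used different populations as replicates. In comparisons of alveolar or all distal organoids with tracheal ones, Ad-GFP and Ad-Cre cultures split from the same sort also counted as separate replicates. The mixed, alveolar and bronchiolar BASC Ad-Cre cultures were separated by hand from BASC organoids during passage. They may share a sort, and each counted as a replicate where used. Neonatal lung mesenchymal support cells were grown in the same Matrigel, and every library held RNA of both compartments.

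In Hedgehog signaling a secreted ligand made by one cell binds Patched on another, which relieves the block on Smoothened and lets the GLI factors turn on target genes. In the developing lung Shh is made by epithelium and received by the surrounding mesenchyme, where Gli1, Ptch1 and Hhip are themselves targets, so that their RNA is commonly read as a measure of response. Pdgfra, a receptor of fibroblasts, served as the mesenchymal marker, and Epcam, an adhesion protein of epithelium, as the epithelial marker. In bulk RNA of this kind, fewer cells of a type and less RNA per cell cannot be told apart.

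The genes lie on GRCm38 at chr5:28456815-28467256 (Shh), chr13:63508328-63573598 (Ptch1), chr6:29735503-29761365 (Smo), chr13:60174405-60177365 (Gas1), chr16:44485049-44558897 (Boc), chr8:79965851-80058006 (Hhip), chr10:127329882-127341974 (Gli1), chr1:118834132-119053619 (Gli2) and chr13:15463235-15730026 (Gli3). RefSeq promoters of build GRCm38.p6 were matched for 6 of the 9 genes, and Shh, Gli1 and Boc had no match and were not searched. The 250 bases upstream of the start are printed for Hhip (chr8:80058009-80058258, minus strand) and Gli2 (chr1:119053620-119053869, minus strand). Among the 6 matched genes, these were the 2 higher in alveolar organoids whose window holds the motif core. Ptch1 and Gas1, also higher there, held no core, and Smo and Gli3, lower there, held 1 each. Capitals mark the 6-base core CCACCC of the GLI site, or its reverse complement.
Hhip: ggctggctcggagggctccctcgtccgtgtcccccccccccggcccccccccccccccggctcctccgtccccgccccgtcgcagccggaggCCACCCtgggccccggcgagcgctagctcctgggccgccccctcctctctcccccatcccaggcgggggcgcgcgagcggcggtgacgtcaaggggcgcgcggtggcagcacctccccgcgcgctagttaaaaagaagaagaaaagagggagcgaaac
Gli2: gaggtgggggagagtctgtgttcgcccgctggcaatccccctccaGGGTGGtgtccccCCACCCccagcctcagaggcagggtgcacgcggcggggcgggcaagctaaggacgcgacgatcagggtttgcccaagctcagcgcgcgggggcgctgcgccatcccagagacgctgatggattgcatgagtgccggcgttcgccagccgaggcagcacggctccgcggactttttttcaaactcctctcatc
The core was found once in Hhip, from 158 to 153 bases before the start, and at 2 places in Gli2, from 205 to 200 and from 192 to 187 bases before it. The 9-base consensus GACCACCCA was in neither on either strand. Of 32851 promoters of the same length, 28.1% held the core and 0.225% the consensus, so a match of the core is common and only describes the letters.

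Organoid libraries held 27772660 to 97191624 expected counts and tumoroid libraries 15327265 to 23355938. Organoid libraries were made with TruSeq reagents and run on a HiSeq, and tumoroid libraries were made and run on DNBSEQ, so sequencing platform and passage through a tumor cannot be told apart. The summed level of 11 mesenchymal markers ran from 955 to 3810 TPM (a transcript's share of a library after scaling for its length) in organoids and from 197 to 4510 TPM in tumoroids, with Tcf21 at 0.06 TPM or less throughout. Although the labels name endothelial support cells, 6 endothelial markers summed to at most 5.12 TPM. Basal markers were as high in the cultures labelled club (3320 and 3610 TPM summed over 4 genes) as in those labelled basal (2730 and 3040 TPM). AT2-derived tumoroid 3 stood apart, with Pdgfra at 173 TPM and Epcam at 30.8 TPM against 4.03 to 83.7 TPM and 101 to 584 TPM in the other 6 tumoroids from transplants.

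Shh, the ligand, followed the alveolar cultures. In the tracheal organoids it had 0 counts in club Ad-GFP, basal Ad-GFP and basal Ad-Cre and 3 counts in club Ad-Cre, and a count of 0 allows up to 0.0666, 0.0366 and 0.0352 TPM in those 3 libraries. Mixed BASC organoids had 0.16 TPM with Ad-GFP and 0.41 TPM with Ad-Cre, and bronchiolar BASC organoids 1.31 TPM. AT2 organoids had 4.49 TPM with Ad-GFP and 11.3 TPM with Ad-Cre, and alveolar BASC organoids 8.71 TPM. All alveolar organoids were thus above all others, with no overlap. In tumoroids Shh was 11.2, 5.91 and 1.21 TPM in the 3 of AT2 origin, 7.3, 4.66 and 14.1 TPM in the 3 of mixed BASC origin, 1.89 TPM in the bronchiolar one and 7.36 TPM in the autochthonous one. It was lowest in AT2-derived tumoroid 3, the library poorest in Epcam, and the AT2 and mixed BASC groups overlapped. The other Hedgehog ligands stayed low, with Ihh between 0.04 and 0.95 TPM and Dhh between 0 and 0.49 TPM over all 18 cultures.

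Ptch1, the receptor for the ligand and a target of the pathway, was present in every culture. It was 13.8 to 17.1 TPM in the 4 tracheal organoids, 14.2 to 16.2 TPM in the mixed and bronchiolar BASC organoids and 18.7, 21 and 24.2 TPM in the alveolar organoids. In tumoroids it was 5.86, 4.85 and 9.91 TPM in the AT2 group, 15.7, 6.55 and 8.78 TPM in the mixed BASC group, 11.7 TPM in the bronchiolar and 20.8 TPM in the autochthonous one. The alveolar organoids were the highest among organoids, and the autochthonous tumoroid was the only tumoroid in their range.

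Hhip, which encodes a decoy that binds the ligand, showed a wider range. Tracheal organoids had 0.06 to 0.22 TPM, mixed and bronchiolar BASC organoids 0.16 to 0.3 TPM, and the alveolar organoids 2.88 (BASC Ad-Cre), 5.51 (AT2 Ad-Cre) and 11.3 TPM (AT2 Ad-GFP). In tumoroids Hhip was 0, 0.02 and 2.54 TPM in the AT2 group, 0.04, 0.81 and 0 TPM in the mixed BASC group, 0.08 TPM in the bronchiolar and 0.09 TPM in the autochthonous one. Only AT2-derived tumoroid 3 and mixed BASC-derived tumoroid 2, which had the highest Pdgfra of the tumoroids (173 and 83.7 TPM), had more than 4 Hhip counts. The 0 counts of AT2-derived tumoroid 1 and mixed BASC-derived tumoroid 3 allow up to 0.0769 and 0.079 TPM.

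Smo, the transducer that Ptch1 holds in check, and Boc, a cell-surface co-receptor, ran the other way in organoids. Smo was 44.9 to 54.8 TPM in tracheal, 34.8 to 38.2 TPM in mixed and bronchiolar BASC and 18 to 26.7 TPM in alveolar organoids, with no overlap between the 3 sets. Boc was 19.8 to 28.7 TPM in tracheal and 8.26 to 18 TPM in alveolar organoids. In tumoroids from transplants Smo spread from 6.21 to 52 TPM and Boc from 0.71 to 9.48 TPM, and both were lowest in AT2-derived tumoroid 2, the library lowest in Pdgfra (4.03 TPM). Gas1, another co-receptor, was 5.34 to 6.25 TPM in tracheal organoids, 5.03 to 10.6 TPM in mixed and bronchiolar BASC organoids and 11, 20.3 and 38.4 TPM in alveolar organoids. It reached 157 TPM in AT2-derived tumoroid 3 and 53 TPM in mixed BASC-derived tumoroid 2, against 1.63 to 21.9 TPM in the other tumoroids.

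Gli1, the GLI factor whose own transcription depends on the pathway, was low outside the alveolar organoids. It was 0.04 to 0.1 TPM in tracheal organoids, from 4 to 11 counts a library, and 0.09, 0.23 and 0.36 TPM in mixed Ad-GFP, mixed Ad-Cre and bronchiolar BASC organoids. AT2 organoids had 4.6 TPM with Ad-GFP and 8.54 TPM with Ad-Cre, and alveolar BASC organoids 3.21 TPM. In tumoroids it was 0.42, 0.04 and 0.28 TPM in the AT2 group, 1.49, 0.44 and 0.24 TPM in the mixed BASC group, 0.45 TPM in the bronchiolar and 1.12 TPM in the autochthonous one, on 2 to 66 counts. Every tumoroid thus lay below every alveolar organoid in Gli1, while 6 of the 8 tumoroids had more Shh than the AT2 Ad-GFP organoids.

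Gli2, the main activator, and Gli3, mostly a repressor, differed from Gli1 in tumoroids. Gli2 was 0.98 to 1.51 TPM in tracheal, 1.16 to 1.64 TPM in mixed and bronchiolar BASC and 4.83 to 9.98 TPM in alveolar organoids. In tumoroids it was 12.2 TPM in AT2-derived tumoroid 3 and 9.52 TPM in mixed BASC-derived tumoroid 2, and 0.27 to 2.77 TPM in the others. Gli3 was 5.9 to 6.72 TPM in tracheal and 2.95 to 4.97 TPM in alveolar organoids, and the same pair of tumoroids was highest, at 15.1 and 6.89 TPM, against 0.31 to 2.31 TPM in the rest.

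**Figure D1:**
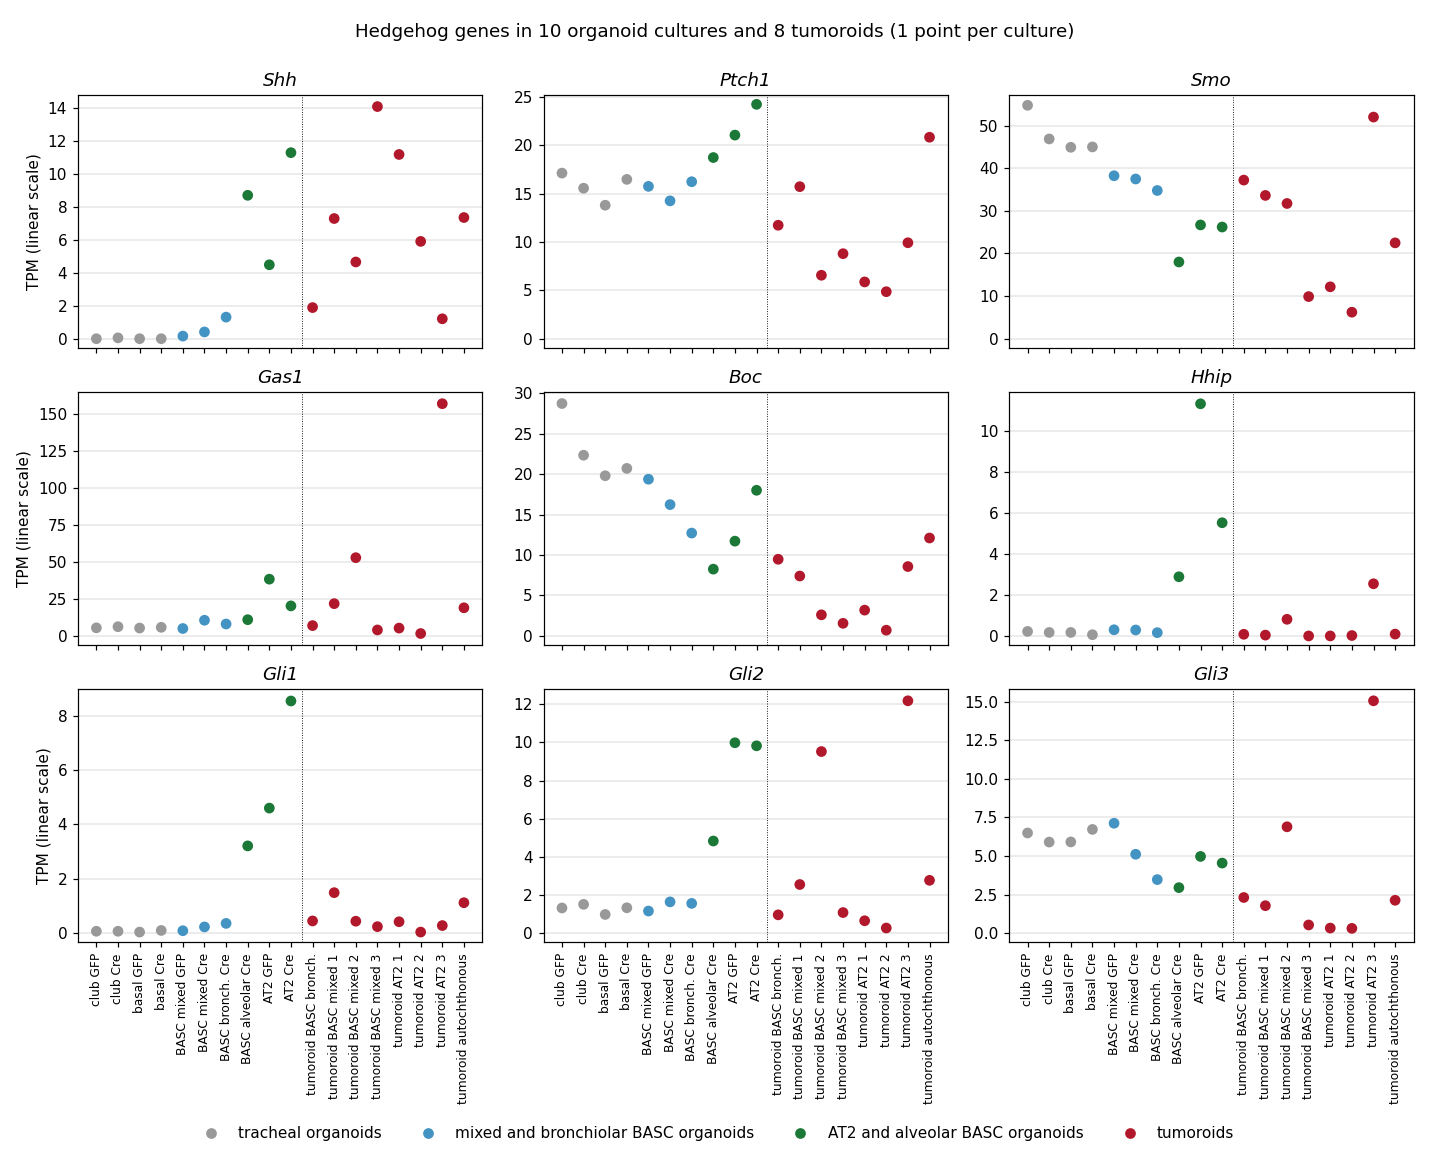
TPM (linear vertical axis) of each of the 9 genes in each culture, 1 point per culture, with organoids left and tumoroids right of the dotted line. Shh is high in alveolar organoids and in most tumoroids, whereas no tumoroid passes 1.49 TPM of Gli1 and the 3 alveolar organoids lie at 3.21 TPM or above.

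To ask how alveolar cultures differed from tracheal ones, the 3 alveolar organoids (AT2 Ad-GFP, AT2 Ad-Cre and alveolar BASC Ad-Cre) were compared with the 4 tracheal ones. The test had no term for population, so Ad-GFP and Ad-Cre cultures split from the same sort counted as separate replicates. Its p-values and standard errors do not allow for that sharing. Shh, Ptch1, Gas1, Hhip, Gli1 and Gli2 were higher in alveolar organoids and Smo, Boc and Gli3 were lower, so all 9 genes passed an adjusted p of 0.05 (edgeR quasi-likelihood test). Of all 18135 genes tested, 32.9% were called higher and 34.1% lower, 67.0% in all, so a call by itself says little here and the sizes matter more. The median absolute log2 fold change was 2.17 over the 9 genes and 0.631 over all genes.

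For Shh, 2952 counts in the alveolar libraries stood against 3 in the tracheal ones, a 732-fold ratio of depth-scaled pooled counts with a 95% exact counting interval from 250 to 3550. All 3 tracheal counts came from club Ad-Cre, so the ratio and its interval rest on that library. The fitted log2 fold change of 9.49 depends on the prior count and ran from 8.98 to 12.66 when single cultures were left out, highest without club Ad-Cre. Gli1 was higher by 6.43 ± 0.42 (log2 fold change ± SE, edgeR adjusted p = 7.12e-06), Hhip by 5.71 ± 0.59 (7.35e-05) and Gli2 by 3.00 ± 0.22 (1.21e-05). Gas1 was higher by 2.17 ± 0.34 (0.000741), and Ptch1, although called, by only 0.61 ± 0.08 (0.000257). Smo fell by 0.86 on the log2 scale (SE 0.12, adjusted p = 0.000385).

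The calls of Boc and Gli3 were near the threshold. Boc fell by 0.70 on the log2 scale (SE 0.23, edgeR adjusted p = 0.0248), and its adjusted p became 0.0702 without the AT2 Ad-GFP organoids, 0.0678 without club Ad-GFP and 0.0541 without club Ad-Cre. Gli3 fell by 0.41 (SE 0.14, adjusted p = 0.0341), and without the AT2 Ad-Cre organoids or any 1 of the 4 tracheal cultures its adjusted p lay between 0.06 and 0.0767. When all 6 distal organoids were compared with the 4 tracheal ones, none of the 9 genes was called, with adjusted p from 0.063 (Shh) to 0.307 (Gli3), and 50 of 18103 genes were called in all. The mixed and bronchiolar BASC organoids overlapped the tracheal ones in Ptch1, Gas1, Hhip, Gli1, Gli2 and Gli3.

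Markers of both compartments moved with this comparison. Of 10 mesenchymal markers tested 9 were higher in alveolar organoids and none lower, Pdgfra by 2.49 ± 0.21, and all 7 epithelial markers were lower, Epcam by 2.33 on the log2 scale. The summed mesenchymal level was 2020 to 3810 TPM in alveolar and 958 to 1130 TPM in tracheal organoids, and the AT2 marker Sftpc was at most 62.8 TPM in tracheal and at least 60435 TPM in alveolar organoids. Beside the 2.49 of Pdgfra stand 3.00 for Gli2 and 2.17 for Gas1, and 6.43 for Gli1 and 5.71 for Hhip, without a test between genes. Of 4 immune markers tested, Ptprc, Cd79a and Csf1r were higher in alveolar organoids, at 2.3 TPM or less, and Cd68 was lower (22.4 to 22.9 against 81.3 to 102 TPM). Of 2 endothelial markers tested, Pecam1 was higher, at 0.49 TPM or less. The part of culture composition in these differences was not tested.

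Of 35 other genes of the pathway, taken from a list, 33 were tested, and 20 were higher, 5 lower and 8 not called. Among all 18135 genes tested, 32.9% were called higher and 34.1% lower, 67.0% in all. All 7 mesenchymal targets on the list were higher, among them Foxf1, a lung mesenchyme transcription factor, by 2.76 ± 0.09 (edgeR adjusted p = 4.7e-07; 3.45 to 3.78 TPM in tracheal and 18.7 to 24.3 TPM in alveolar organoids). The largest of the 25 changes were in Lrp2, an endocytic receptor that binds the ligand (0.02 to 0.05 against 32.1 to 68.2 TPM), in the glypican Gpc3 (4.89 ± 0.50), in Mycn (4.72 ± 0.35), in Bmp4 (4.43 ± 0.16), in Scube1 (4.34 ± 0.33) and in Tbx5 (3.22 ± 0.22). Ihh was higher by 2.02 ± 0.47 (edgeR adjusted p = 0.00564) at levels below 0.6 TPM. Genes of the intracellular relay were divided, with 4 of 11 higher, 2 lower and 5 not called.

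**Figure D2:**
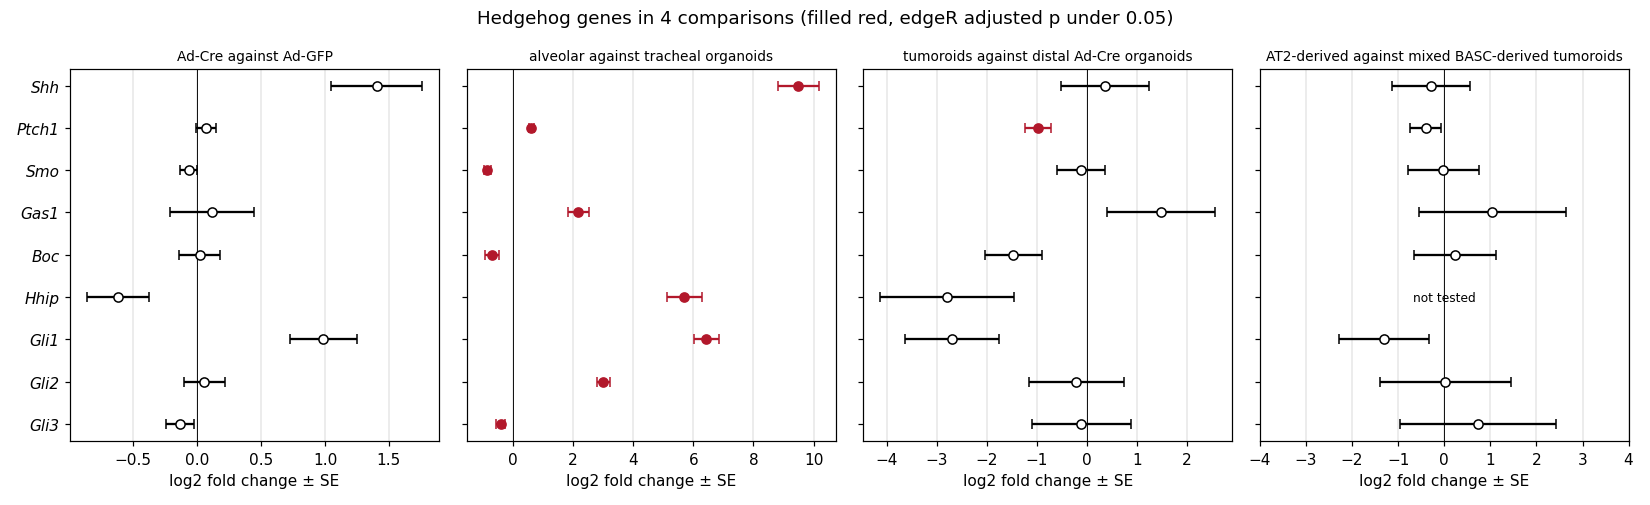
Log2 fold change with its standard error (horizontal axis, scale differs by panel) of each gene in 4 comparisons, in red where the edgeR adjusted p is under 0.05. All 9 genes are called between alveolar and tracheal organoids, only Ptch1 between tumoroids and distal Ad-Cre organoids, and none in the other 2 comparisons.

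Activation of the EGFR allele was examined in the 4 matched pairs of Ad-Cre and Ad-GFP cultures, with cell population as a block. None of the 9 genes, and none of 17749 genes tested (0%), was called by edgeR, while 350 genes had an unadjusted p under 0.05 and DESeq2 called 5. Shh was 11.3 TPM with Ad-Cre and 4.49 TPM with Ad-GFP in AT2 organoids, and 0.41 and 0.16 TPM in mixed BASC organoids. The fitted difference was 1.41 ± 0.35 (unadjusted p = 0.0118, edgeR adjusted p = 0.994), and the tracheal pairs had at most 3 counts. Gli1 differed by 0.99 ± 0.26 (0.00973, adjusted 0.994) and was higher with Ad-Cre in the AT2 and mixed BASC pairs, while the tracheal cultures had 4 to 11 counts. Hhip ran against it, at -0.62 ± 0.24 (0.0437, adjusted 0.994), with 5.51 TPM (Ad-Cre) against 11.3 TPM (Ad-GFP) in AT2 organoids. The other pairs had 7 to 26 counts a library, and the basal pair was no lower by counts, with 7 for Ad-GFP and 8 for Ad-Cre. None of the 3 passed the correction over all genes.

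The other 6 genes had log2 fold changes between -0.14 (Gli3) and 0.12 (Gas1). Gas1 illustrates how the pairs differed, since it was lower with Ad-Cre in AT2 organoids (20.3 against 38.4 TPM) and higher in mixed BASC organoids (10.6 against 5.03 TPM), as was Pdgfra (87.4 against 121 TPM, and 29.8 against 17 TPM). A test of the difference between the distal and the tracheal effect called none of the 9 and no gene of 17749 (0%), with 852 at an unadjusted p under 0.05. None of the 32 other pathway genes tested was called.

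Tumoroids from transplants (7) were then compared with the distal Ad-Cre organoids (4). Among these organoids the mixed, alveolar and bronchiolar BASC cultures, which may share a sort, counted as separate replicates. The p-values and standard errors do not allow for such sharing. Ptch1 was lower in tumoroids by 0.99 on the log2 scale, or 1.98-fold (edgeR, SE 0.26, adjusted p = 0.0218), and was the only gene of the 9 called. Among 16139 genes, 8.77% were called lower and 10.8% higher, 19.6% in all. Ptch1 was 4.85 to 15.7 TPM in the tumoroids and 14.2 to 24.2 TPM in the organoids, where mixed BASC-derived tumoroid 1 alone overlapped. Its adjusted p was 0.0702 without the AT2 Ad-Cre organoids and 0.0592 without the alveolar BASC organoids, and stayed under 0.05 without any 1 of the other 9 cultures.

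Gli1 had a log2 fold change of -2.70 ± 0.95 but an edgeR adjusted p of 0.0676. It passed in DESeq2's Wald test (adjusted p = 0.0184), in edgeR without mixed BASC-derived tumoroid 1 (0.0468) or the mixed BASC Ad-Cre organoids (0.0454), and when AT2 and mixed BASC tumoroids were set against AT2 and alveolar BASC organoids alone (-3.62, 0.0346). Without the AT2 Ad-Cre organoids the value was -1.47 (0.307), so the size rests largely on that culture. The Hhip value was -2.80 ± 1.34 (0.164) and became -1.65 without the AT2 Ad-Cre organoids, and Hhip was too low to be tested without AT2-derived tumoroid 3 or mixed BASC-derived tumoroid 2. That of Boc was -1.47 ± 0.57 (0.0921, and 0.0444 without the bronchiolar tumoroid). Shh did not follow them, at 0.35 ± 0.88 (0.814), with 1.21 to 14.1 TPM in tumoroids and 0.41 to 11.3 TPM in organoids.

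Gas1 (1.48 ± 1.09), Smo (-0.12 ± 0.48), Gli2 (-0.22 ± 0.95) and Gli3 (-0.11 ± 1.00) had standard errors near or above their size, and the last 3, like Shh, changed sign when single cultures were left out. The median log2 fold change over the 9 genes was -0.22, beside -0.00164 over all genes. Among 33 other pathway genes tested, 2 were called and 31 were not, where 19.6% of all 16139 genes tested were called. Spop, an adaptor for degradation of GLI proteins, was lower by 0.82 on the log2 scale (edgeR adjusted p = 0.024). Arrb2, an arrestin, was higher by 0.98 ± 0.31 (0.0444). Ihh stood at 1.69 ± 0.63 (0.0797) and Foxf1 at -0.75 ± 0.65 (0.452). Epithelial markers were not called (0 of 7) and 1 of 10 mesenchymal markers, Lum, was called lower. Of 4 immune markers tested, Cd79a was higher in tumoroids (2.35 ± 0.55, edgeR adjusted p = 0.0131). Ptprc (0.98), Csf1r (0.70) and Cd68 (-0.735) were not called. The immune sum was 13.7 to 39 TPM in these tumoroids and 25.1 to 51.7 TPM in the organoids. Pecam1, the only 1 of 6 endothelial markers tested, was higher (2.61 ± 0.73, edgeR adjusted p = 0.0291). The endothelial sum was low, at 0.34 to 4.34 TPM in these tumoroids and 0.36 to 0.55 TPM in the organoids. The mesenchymal sum spanned 197 to 4510 TPM in these tumoroids and 2020 to 3160 TPM in the organoids, and its part in the differences was not tested.

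AT2-derived and mixed BASC-derived tumoroids, 3 of each, were then compared. Hhip was too low to be tested, and edgeR called none of the other 8 genes and none of 15470 genes in all (0%), with 144 at an unadjusted p under 0.05 and 7 called by DESeq2. The values ran from -1.32 ± 0.98 (Gli1) to 1.04 ± 1.60 (Gas1), all with an edgeR adjusted p of 1. AT2-derived tumoroid 3 set several of them. Without it Gas1 stood at -2.67, Gli2 at -2.96 and Gli3 at -3.54, all with an adjusted p of 0.793. Within the 3 AT2-derived tumoroids Gli2 alone spread from 0.27 to 12.2 TPM.

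Each gene was next related to Pdgfra and Epcam within each platform, as Pearson's r of log2(TPM + 0.1). The points are not independent, since matched organoids share a sort, some tumoroid labels share a mouse number and Pdgfra and Epcam oppose each other (r = -0.91 over 10 organoids, -0.767 over 8 tumoroids), so the 36 values are given without a p. Gas1 and Gli2 went with Pdgfra in both sets. For Gas1 r was 0.968 in organoids and 0.991 in tumoroids (Spearman's rho 0.976 and 0.952), and for Gli2 it was 0.984 and 0.969 (rho 0.988 and 0.905). Leaving out the 2 cultures farthest from the median of Pdgfra left these at 0.906, 0.987, 0.958 and 0.927.

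Gli1 went with Pdgfra in organoids (r = 0.966, rho 0.875, n = 10; 0.945 in the 6 distal organoids) and less closely in tumoroids (r = 0.478, rho 0.429, n = 8). Hhip had r = 0.97 in organoids and 0.84 in tumoroids, but rho was 0.663 in organoids, where 7 of 10 cultures lay at 0.3 TPM or below. In tumoroids only AT2-derived tumoroid 3 and mixed BASC-derived tumoroid 2 had more than 4 Hhip counts, so the r of 0.84 rests largely on them. Ptch1 had 0.834 and 0.397, and 0.511 in organoids without the 2 farthest cultures. Between genes, Gli1 and Gli2 had r = 0.978 in organoids and 0.39 in tumoroids, and the tumoroids with most Gli2 were not those with most Gli1.

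Gli3, Smo and Boc changed sign between the sets. With Pdgfra, Gli3 had r = -0.541 in organoids and 0.905 in tumoroids, Smo -0.805 and 0.818, and Boc -0.627 and 0.6. Without the 2 farthest cultures these were -0.848 and 0.782, -0.91 and 0.593, and -0.87 and 0.257. The tracheal organoids, low in Pdgfra and high in Epcam, carried the most Smo and Boc. In tumoroids the 3 lowest in Smo and Gli3 (AT2-derived 1 and 2, mixed BASC-derived 3) were poor in Pdgfra, while the bronchiolar one, as poor in Pdgfra, had 37.2 TPM of Smo. In the 6 distal organoids alone, the values for Gli3 and Boc were -0.276 and -0.367.

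**Figure D3:**
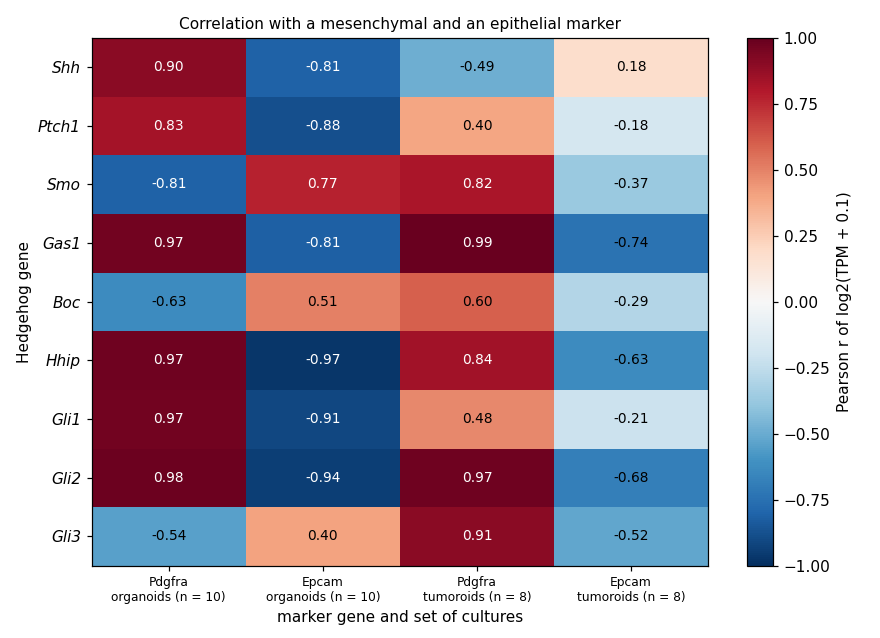
Pearson's r of each Hedgehog gene (rows) with Pdgfra and Epcam in 10 organoids and 8 tumoroids (columns), from blue (-1) to red (1). Gas1 and Gli2 have r above 0.96 with Pdgfra in both sets, and Smo, Boc and Gli3 are negative in organoids and positive in tumoroids.

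With Epcam, r over the 10 organoids was -0.973 for Hhip, -0.94 for Gli2, -0.912 for Gli1, -0.881 for Ptch1 and -0.813 for Gas1, and 0.767, 0.505 and 0.402 for Smo, Boc and Gli3. Rank correlations were weaker, for example -0.407 for Gli1 and -0.442 for Gli2, and Gas1 had r = -0.359 without the 2 farthest cultures. The 3 alveolar cultures were the 3 organoids lowest in Epcam. Over the 8 tumoroids r with Epcam was -0.736 for Gas1, -0.68 for Gli2, -0.628 for Hhip and -0.516 for Gli3, and between -0.371 and 0.177 for the other 5 genes. Some of these moved far without the 2 cultures farthest in Epcam, to -0.963 for Gli1, -0.954 for Boc, -0.837 for Smo and -0.717 for Ptch1.

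The ligand did not follow the epithelial marker in organoids. Shh had r = -0.808 with Epcam and 0.903 with Pdgfra over 10 organoids, where the alveolar cultures were at once the lowest in Epcam and the highest in Pdgfra (without the 2 farthest cultures, -0.642 and 0.922). In tumoroids it had 0.177 with Epcam and -0.486 with Pdgfra, and 0.788 and -0.723 in the 7 tumoroids without the bronchiolar one, which had much Epcam (584 TPM) and little Shh. With Sftpc, a relation added after the values were seen, r was 0.954 in organoids (rho 0.926) and 0.691 in tumoroids (rho 0.667). Shh and Gli1 had r = 0.958 in organoids and 0.106 in tumoroids, where mixed BASC-derived tumoroid 3 and AT2-derived tumoroid 1 combined the most Shh (14.1 and 11.2 TPM) with 0.24 and 0.42 TPM of Gli1.

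**Figure D4:**
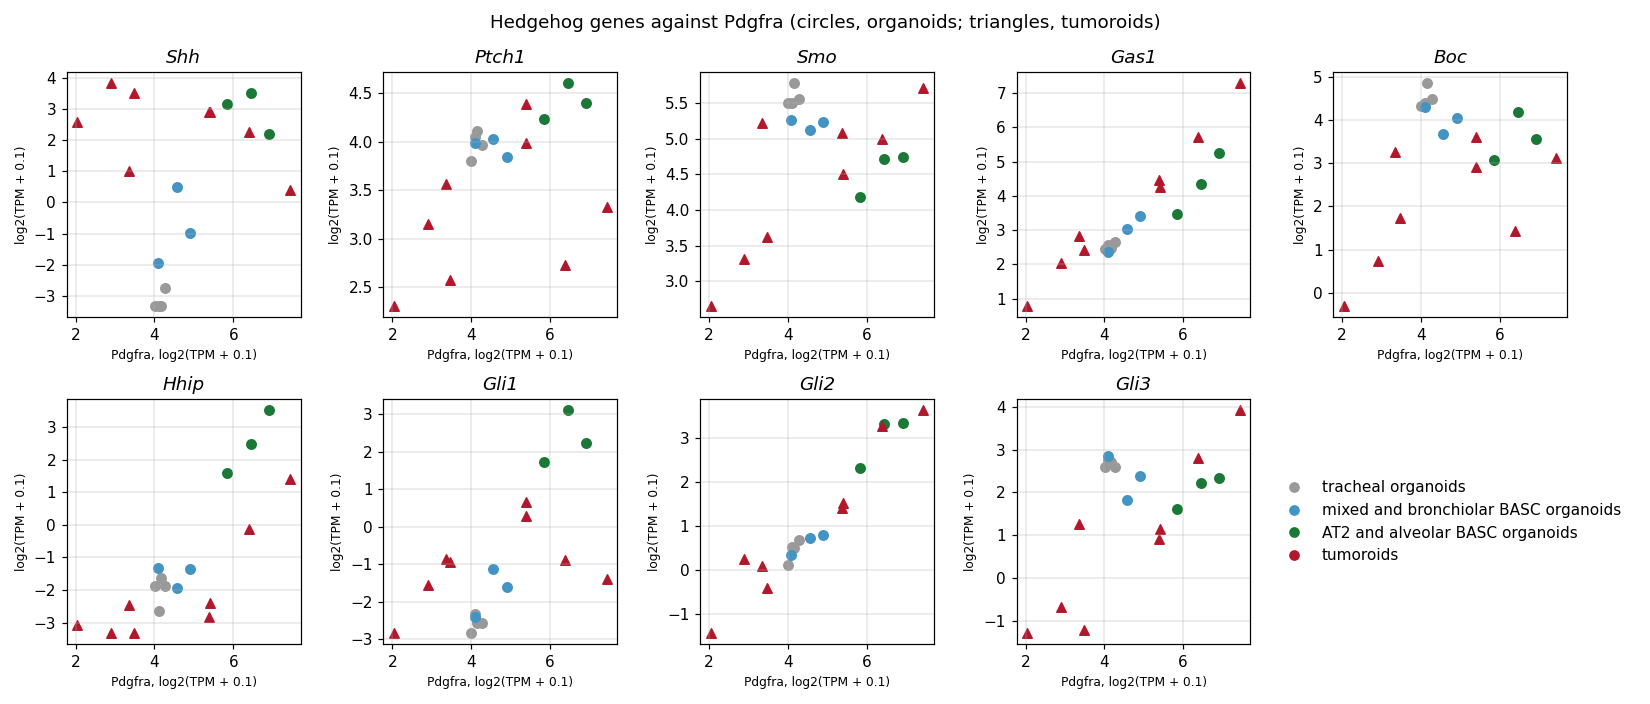
Log2(TPM + 0.1) of each gene (vertical) against that of Pdgfra (horizontal), with organoids as circles and tumoroids as triangles. For Gas1 and Gli2 both sets lie along a rising band, and for Gli1 the pair of tumoroids richest in Pdgfra lies below the alveolar organoids.

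Because mesenchymal marker RNA varied between cultures, each gene was also expressed per Pdgfra, as 100 × (TPM + 0.1) / (Pdgfra TPM + 0.1). Gli2 kept within 5.81 to 11.3% of Pdgfra in all 10 organoids and 6.33 to 15.8% in the 8 tumoroids, although Pdgfra itself ranged from 4.03 to 173 TPM. Gas1 was 19.3 to 35.8% in the organoids and 41.9 to 90.8% in the tumoroids, with no overlap. Gli1 was 0.869 to 1.16% in tracheal, 1.1 to 1.94% in mixed and bronchiolar BASC and 3.89 to 9.88% in alveolar organoids. In the Pdgfra-rich AT2-derived tumoroid 3 and mixed BASC-derived tumoroid 2 it was 0.219% and 0.644%, and in the other 6 tumoroids 2.89 to 5.39%. Shh was 3.79 to 15.3% in alveolar organoids, and 102, 146 and 190% in AT2-derived tumoroids 1 and 2 and mixed BASC-derived tumoroid 3. The pseudocount of 0.1 TPM makes up all or most of the tracheal Shh values plotted and as much as or more than the measured Gli1 of the tracheal organoids, so these are not measured shares. It also lifts Gli1 in Pdgfra-poor tumoroids, where AT2-derived tumoroid 2 had 2 counts.

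The log2 ratios to Pdgfra and to Epcam were tested between the 7 tumoroids from transplants and the 4 distal Ad-Cre organoids. The test was an exact two-sided permutation test, whose smallest possible p is 0.00303. It treated the BASC organoid cultures as independent, although they may share a sort. None of the 18 ratios passed after adjustment. Gas1 per Pdgfra came nearest, with a mean log2 ratio of -0.77 ± 0.37 (SD, n = 7) in tumoroids and -1.87 ± 0.43 (SD, n = 4) in organoids, a difference of 1.10 (exact permutation p = 0.00606, adjusted p = 0.109). Gli2 per Pdgfra differed by 0.20 (exact p = 0.503, adjusted 0.902), Gli1 per Pdgfra by -0.63 (exact p = 0.594, adjusted 0.902) and Hhip per Pdgfra by -1.14 (exact p = 0.133, adjusted 0.902). In most of these tumoroids the pseudocount makes up all or most of the Hhip value. With a pseudocount of 1 TPM the Hhip difference was 0.0443. Shh per Epcam was higher by 2.28 (exact p = 0.2, adjusted 0.902), with an SD of 3.71 among the organoids. 

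**Figure D5:**
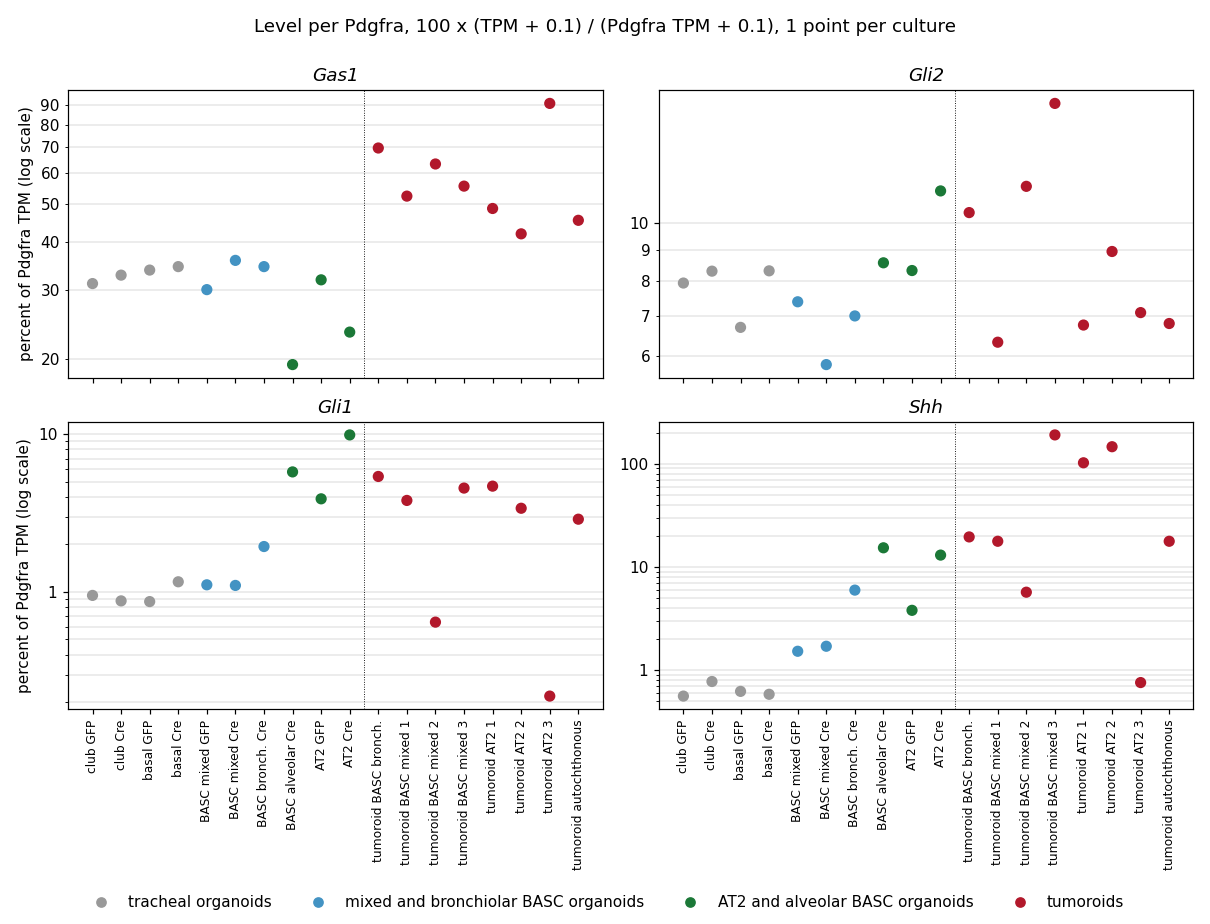
Gas1, Gli2, Gli1 and Shh as a percent of Pdgfra TPM (log vertical axis) in each culture. Gas1 lies at 41.9% or above in every tumoroid and at 35.8% or below in every organoid, and Gli1 is lowest in AT2-derived tumoroid 3 (0.219%).

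The single cultures had no replicate check. The bronchiolar tumoroid, with a Krt5 level of 103 TPM and Scgb1a1 at 8473 TPM, had less Shh (1.89 TPM) than 6 of the other 7 tumoroids, and Gli1 (0.45 TPM) and Hhip (0.08 TPM) within their range. Bronchiolar BASC organoids had 1.31 TPM of Shh, 0.36 TPM of Gli1 and 0.16 TPM of Hhip against 8.71, 3.21 and 2.88 TPM in the alveolar BASC organoids picked from the same kind of culture. The autochthonous tumoroid, which had not passed through a transplant, was highest of the 8 in Ptch1 and Boc (20.8 and 12.1 TPM) and had the second highest Gli1 (1.12 TPM), with Pdgfra at 42.1 TPM.

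Over the 10 organoids, the protein-coding genes most like Shh among 13180 with a mean of at least 1 TPM were Bend7 (r = 0.9943), Mical1 (0.9936) and Fam19a4 (0.9927), and over the 8 tumoroids these had r = 0.903, 0.742 and 0.848. Those most like Gli1 were Peg3 (0.9986), Dcun1d2 (0.9945) and the ion transporter gene Slc26a9 (0.9944), with 0.646, 0.675 and -0.311 in tumoroids. Ptch1 was most like Ppip5k1 (0.9801), Dcaf11 (0.9691) and Xrn1 (0.9681), which had 0.0303, -0.0598 and 0.25 in tumoroids, and Hhip most like Nr4a3 (0.996), Serpina3n (0.9902) and Rnase4 (0.99), with 0.24, 0.623 and 0.0201. The 3 genes most like Shh in organoids thus had r of 0.742 or more with it in tumoroids, and those most like Ptch1 had 0.25 or less. The AT2 markers Etv5 and Sftpc had 0.767 and 0.691 with Shh over the 8 tumoroids. The r of other genes over tumoroids was not computed as a background, so no conclusion is drawn from the contrast.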

How the data were processed

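RNA was sequenced from 18 mouse cultures, and each sample's group was taken from its labels. The 3 tumoroids of AT2 origin also bear an NGFR negative sort in their labels, and their stated origin decided the group. The submitters' processing notes name Trimmomatic 0.39, STAR 2.6.1d, RSEM 1.3.2 and GRCm38. The authors deposited, per gene, the expected count estimated by RSEM, without normalization between samples, and RSEM's TPM. Deposited FPKM values were not used. Gene IDs were matched to symbols of GENCODE vM21 (46005 of 46603).

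Expected counts were rounded and tested in R 4.3.3 with edgeR 4.0.16 (filterByExpr, TMM factors, quasi-likelihood test, Benjamini-Hochberg adjustment over all genes tested, threshold 0.05). Standard errors are the log2 fold change divided by the square root of F. TPM gave levels, correlations and ratios (pseudocount 0.1), with exact permutation tests in SciPy 1.17.1 and adjustment over 18 ratios. The edgeR steps were tested on simulated counts. Matched cultures share a sort, and the BASC Ad-Cre cultures may share one. Some tumoroid labels share a mouse number without stating what it marks. The p-values therefore measure the spread between these cultures, which may be technical. No tumoroid pair agreed within sampling noise. Intervals and floors (3 counts) cover counting error only.

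All 9 genes were described in every culture. Other pathway genes were counted by list, with values for Ihh, Dhh, Foxf1 and up to 6 called genes a comparison, largest first; 1 listed gene is not reported here. Likeness to Shh, Gli1, Ptch1 and Hhip was ranked by r over organoids. The genes, lists and tests were chosen with earlier results of these data known. Alternatives were DESeq2's Wald test and size factors, other filters, leaving out each culture or pair, other sets of cultures, a pseudocount of 1, TMM-scaled CPM, and Col1a2 and Cdh1 as markers.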

Additional observations from a re-analysis of the deposited data

Results flagged for a closer look

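Values on the log2(TPM + 0.1) scale were screened in 5 groups of 4 to 7 cultures for a culture far from the rest, and 7 of 45 gene and group pairs were flagged; chance flags about 1 in 20. Among the 4 Ad-GFP organoids, the AT2 culture stood apart with 38.4 TPM of Gas1, 11.3 TPM of Hhip, 4.6 TPM of Gli1 and 9.98 TPM of Gli2. Among the 4 matched Ad-Cre organoids, the AT2 culture stood apart with 8.54 TPM of Gli1 and 9.82 TPM of Gli2. In both groups it was the only alveolar culture. Among the tracheal organoids, club Ad-Cre was flagged for Shh at 0.05 TPM, which is 3 counts where the other 3 cultures had 0.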

How the results depend on the processing

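Of 71 alternative counts (members called, ratios past 0.05, correlations past 0.7 in size), 63 stayed close to the main value, and leaving out 1 culture at a time accounts for 5 of the other 8. With all 6 distal organoids, 0 members were called against the tracheal ones. Between tumoroids and distal Ad-Cre organoids, DESeq2's Wald test and the comparison restricted to AT2 and mixed BASC tumoroids against AT2 and alveolar BASC organoids each called 2 members, and leaving out single cultures gave 0 to 2. Direction changed only for differences that were not called. For Ad-Cre against Ad-GFP on the log2 scale, without a population term Gas1 was -0.38, Boc -0.022 and Gli2 -0.021. In distal cultures alone these were -0.83, -0.17 and -0.32, and in tracheal cultures alone Boc was -0.16, Gli2 -0.13 and Gli3 0.033. Both of those settings also lacked a population term. The distal setting included the alveolar and bronchiolar BASC Ad-Cre cultures, which had no Ad-GFP match. Its values therefore mix population with virus. With pairs fitted and single pairs left out, Gas1 ran from -0.23 to 0.49, Boc from -0.16 to 0.12 and Gli2 from -0.091 to 0.17. Between tumoroids and organoids, the restricted comparison gave -0.37 for Shh, 0.074 for Smo and 0.014 for Gli3, and without single cultures Shh ran from -0.039 to 0.96, Smo from -0.34 to 0.07, Gli2 from -0.83 to 0.46 and Gli3 from -1.03 to 0.14. Between AT2-derived and mixed BASC-derived tumoroids, Gli2 was -0.024 with no filter, and leaving out single tumoroids gave -1.10 to 0.31 for Shh, -1.17 to 0.41 for Smo, -2.67 to 2.16 for Gas1, -0.67 to 1.02 for Boc, -2.96 to 1.38 for Gli2 and -3.54 to 2.37 for Gli3. For ratios to the mesenchymal marker, Col1a2 gave 0.24 for Ptch1 and 0.14 for Gli3, a pseudocount of 1 gave 0.0443 for Hhip and 0.30 for Gli3, and single cultures left out gave -0.34 to 0.39 for Ptch1 and -0.44 to 0.13 for Gli3. For ratios to the epithelial marker, Cdh1 gave -0.40 for Ptch1, -0.13 for Gli2 and -0.50 for Gli3, a pseudocount of 1 gave 0.57 for Hhip and 0.46 for Gli1, and TMM-scaled CPM gave -0.0657 for Gli3. Leaving out single cultures gave ratios to Epcam from -0.18 to 1.04 for Ptch1, -1.02 to 0.23 for Boc, -1.86 to 0.60 for Hhip, -1.34 to 1.20 for Gli1, -0.17 to 1.67 for Gli2 and -0.61 to 0.86 for Gli3. The cause was not tested. Of 180 alternative correlations 6 fell outside the 95% Fisher interval of the main r, namely Gli2 with Pdgfra and Gas1 with Epcam in organoids, and Smo with Pdgfra and Shh, Boc and Gli1 with Epcam in tumoroids. Members absent from a setting had been filtered out there. In the main fit the matched Ad-Cre and Ad-GFP cultures were fitted as pairs, with population as a block. The labels give no replicate numbers that pair cultures of the other groups.

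The main limits are 1 culture per organoid condition, a platform that changes with passage through a tumor, and depth. Tumoroid values of Hhip and Gli1 rest on 0 to 66 counts.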
